A study of Rattus norvegicus with 46 samples.

Results

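Nppa and Nppb encode the precursors of atrial and B-type natriuretic peptide, Npr3 encodes the receptor that clears them, and Pam encodes the enzyme that amidates peptide hormones. Their RNA was followed in left ventricles of male Wistar rats in 5 models of cardiac hypertrophy. All probe sets that the array annotation gives to exactly 1 of these 4 symbols were taken, which gave 14 of 8740 probe sets: 4 for Nppa, 1 for Nppb, 2 for Npr3 and 7 for Pam. In aortic banding a clip around the ascending aorta raised the pressure load for 6, 12 or 16 weeks (2 arrays each) or 30 weeks (4 arrays). In myocardial infarction the left anterior descending coronary artery was tied off for 3 or 9 weeks (4 arrays each), large transmural infarcts were taken, and the scar was cut away, so those arrays hold the surviving wall. The shunt, an opening between aorta and vena cava that overloads the heart with volume, lasted 3 or 8 weeks (2 arrays each). Angiotensin II or the thyroxin analogue Ditpa (3,5-diiodothyropropionic acid) was given under the skin for 2 weeks (2 arrays each). Every surgical time point has its own 2 arrays of sham-operated rats, and both hormones are read against the same 2 vehicle arrays. Finally, 2 arrays hold neonatal left ventricle, which has no control group of its own and is set against the 18 adult control arrays. The rats carried no engineered allele.

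Every array holds 1 pool of RNA from several rats, so p-values reflect variation among pools, and animals within a pool cannot be told apart. Values are intensities on a linear scale. Effects are differences on the log2 scale, treated minus the matching sham or vehicle arrays, ± SE, from 1 limma fit of all 46 arrays, and a probe set is called where its Benjamini-Hochberg adjusted p over the 8740 probe sets is below 0.05. Where a gene has several probe sets, the brightest on average stands for it unless another is named.

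Atrial natriuretic peptide and B-type natriuretic peptide are secreted by heart muscle when it is stretched. They bind Npr1, a receptor that makes cyclic GMP, and so promote the loss of salt and water and widen vessels. Npr3 lacks the cyclase domain and takes the peptides up for breakdown. Nppa is active in the ventricle before and around birth, is mostly an atrial gene in the adult, and is a standard marker of ventricular overload. Pam turns a C-terminal glycine into an amide in many neuropeptides and is abundant in the granules of atrial myocytes, although the natriuretic peptides themselves are not amidated.

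The genes of both peptides are neighbours on rat chromosome 5 (RefSeq, GRCr8), with Nppb at 163699955 to 163701314 and Nppa at 163712184 to 163713493, 10869 bases apart and read in the same direction. Npr3 lies on chromosome 2 (62592557 to 62660497) and Pam on chromosome 9 (105445812 to 105719287). The stretches just before both peptide genes are shown because these genes moved together across the arrays. For Nppa this is chr5:163711934-163712183 on the plus strand, and for Nppb it is chr5:163699758-163699954 on the plus strand, each ending at the base before the gene's outermost annotated start. Capitals mark matches on either strand to short motifs of factors known in heart muscle: AGATA and TGATA (the core bound by GATA factors), AAGTG (bound by Nkx2-5) and CATTCC (the M-CAT element), with no match overlapping another.
Nppa: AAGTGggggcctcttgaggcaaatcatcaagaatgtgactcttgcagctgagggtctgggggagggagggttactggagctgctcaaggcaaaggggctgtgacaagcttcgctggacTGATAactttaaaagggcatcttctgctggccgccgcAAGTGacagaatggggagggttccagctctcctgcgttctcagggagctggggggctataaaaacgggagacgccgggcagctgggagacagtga
Nppb: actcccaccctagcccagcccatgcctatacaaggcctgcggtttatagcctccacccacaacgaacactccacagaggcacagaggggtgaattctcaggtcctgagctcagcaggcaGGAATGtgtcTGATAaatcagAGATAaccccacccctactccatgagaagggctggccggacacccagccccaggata
The Nppa window of 250 bases holds the Nkx2-5 motif at 2 places and the second GATA form at 1, which 40.6% and 22.5% of 33469 rat promoter windows of that length also hold at least once. The Nppb window of 197 bases holds the first and the second GATA form and, on the minus strand, the M-CAT element at 1 place each, against 23.7%, 19.0% and 9.6% of windows of that length. Neither window holds an exact match to TGANTCA (the AP-1 site, N being any base). The same is true of CCWWWWWWGG, the full CArG box bound by Srf, with W being A or T. Sites that differ from these patterns by a letter were not searched for, so such sites may be present. All of these are matches of letters and were not set against any measurement of binding.

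Nppa rose under each kind of mechanical load, in banding, infarction and shunt. Across the 10 treated groups weighted equally it rose by 1.77 ± 0.08 on the log2 scale, 3.41-fold (limma, adjusted p = 3.45e-16), and 25 of the 26 hypertrophic arrays were above the mean of their own controls. The other 3 probe sets of Nppa rose by 1.93, 2.00 and 2.09 on average. Of the 14 probe sets, 10 were called higher on average and 0 lower, against a background of 5.21% of all probe sets called (3.64% higher, 1.57% lower). These 10 were the 4 of Nppa, the 1 of Nppb, both of Npr3 and the 3 brightest of Pam. Without the banding groups 6 were called.

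In banded hearts Nppa stood at 48949 and 49977 after 6 weeks, against 12077 and 7608 in the sham arrays. After 12 weeks it was 40273 and 42947 in banded hearts, against 6910 and 6793 in sham hearts, and after 16 weeks 41385 and 43848, against 8163 and 7226. After 30 weeks the banded arrays read 42753, 38656, 37954 and 26771, and the sham arrays 4824 and 12676. Every banded array was above every sham array at each time, with the narrowest gap at 30 weeks, where the sham arrays also lay farthest apart. Of all probe sets, 20.4%, 10.1%, 26.8% and 11.4% had every banded array above every sham array at 6, 12, 16 and 30 weeks. The effects were 2.37 ± 0.26, 2.60 ± 0.26, 2.47 ± 0.26 and 2.20 ± 0.22 log2 at 6, 12, 16 and 30 weeks (limma adjusted p = 2.19e-06, 2.34e-07, 6.24e-07 and 2.05e-07). The averaged banding effect was 2.41 ± 0.13, or 5.32-fold (adjusted p = 6.3e-15).

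After infarction the level of Nppa was of the same order as in banding. The 4 arrays of infarcted hearts at 3 weeks read 34432, 37504, 43283 and 42094, against 8260 and 8085 in sham hearts, an effect of 2.26 ± 0.22 log2 (limma adjusted p = 2.2e-07). At 9 weeks they read 44031, 41951, 40134 and 31707, against 6196 and 6251 in sham hearts, 2.65 ± 0.22 log2 or 6.29-fold (adjusted p = 4.12e-09). The groups did not overlap at either time, and 8.48% of all probe sets at 3 weeks and 13.7% at 9 weeks lay wholly above their sham arrays.

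Volume overload by the shunt gave a smaller rise. Nppa stood at 16178 and 20440 in shunted hearts at 3 weeks, against 7387 and 8112 in sham hearts, and at 21356 and 20119 at 8 weeks, against 7043 and 8656. Each shunted array was above both of its sham arrays, which held for 20.9% and 20.8% of all probe sets at 3 and 8 weeks, and the effect over both times was 1.32 ± 0.18 log2, 2.5-fold (limma adjusted p = 0.000245). Taken singly, the effect at 8 weeks was called (1.41 ± 0.26, adjusted p = 0.0198) and that at 3 weeks was not (1.23 ± 0.26, adjusted p = 0.0716). The call at 8 weeks was lost without shunt sham replicate 3 (adjusted p = 0.166) or without shunt replicate 1 (0.171) and in a fit of the shunt arrays alone (0.107), and the effect at 3 weeks passed when any of 5 single arrays was left out. In the shunt effect only 0.0458% of all probe sets were called, and these were the 4 probe sets of Nppa.

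**Figure D1:**
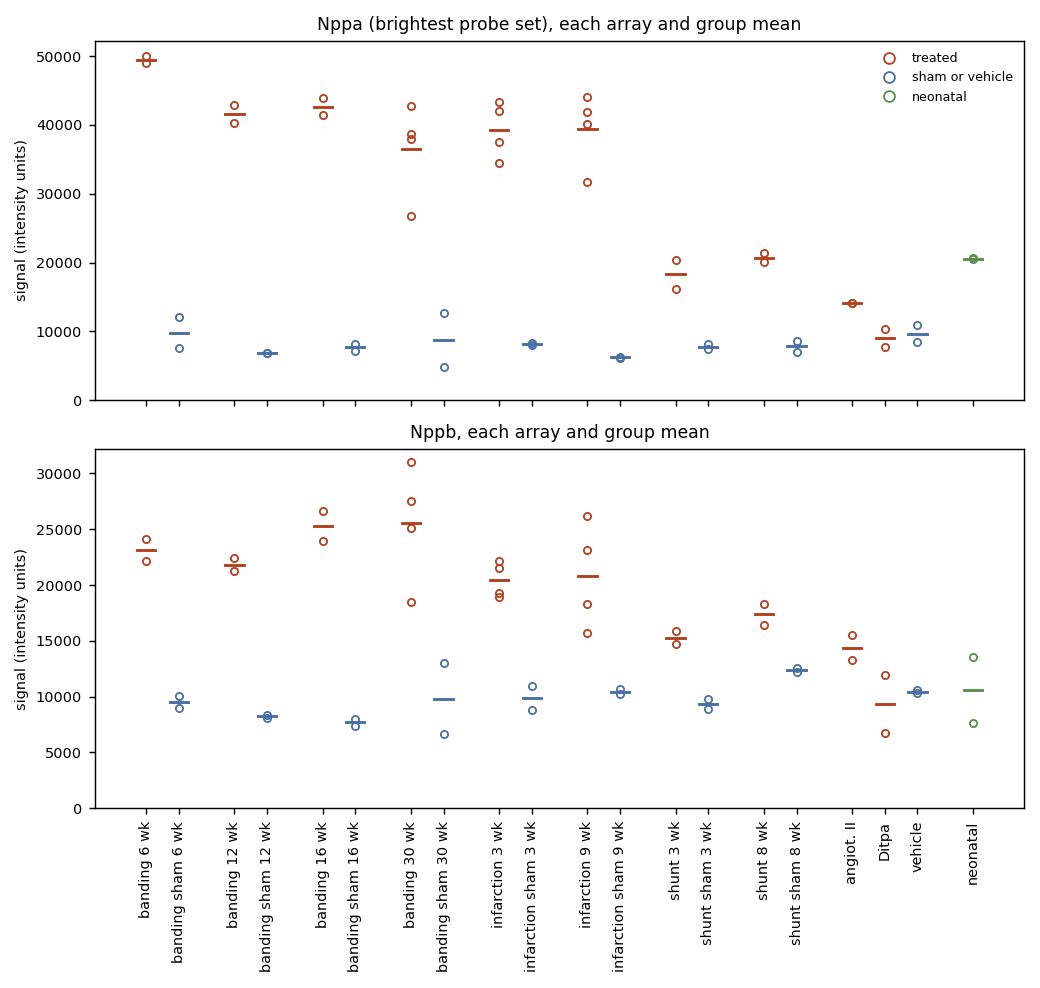
Signal of Nppa (top, brightest probe set) and Nppb (bottom) in every array, in intensity units on an axis from 0. Circles are arrays (1 RNA pool each), bars are group means, and each treated group stands left of its own sham or vehicle group. The banding and infarction arrays of Nppa lie between 26771 and 49977, and all adult control arrays lie between 4824 and 12676.

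Nppb rose under pressure overload and after infarction, by less on the log2 scale than Nppa, although the difference between both genes was not tested. It stood at 24158 and 22118 in banded hearts at 6 weeks against 10027 and 8963 in sham hearts, and at 21221 and 22429 at 12 weeks against 8398 and 8074. At 16 weeks it was 26620 and 23985 in banded hearts, against 8042 and 7405 in sham hearts. At 30 weeks the banded arrays read 30983, 27488, 25122 and 18496, against 6651 and 12982 in sham hearts. No banded array overlapped its sham arrays, which held for 20.4%, 10.1%, 26.8% and 11.4% of all probe sets at 6, 12, 16 and 30 weeks. The effects at 6, 12, 16 and 30 weeks were 1.29 ± 0.26, 1.41 ± 0.26, 1.71 ± 0.26 and 1.43 ± 0.23 log2 (limma adjusted p = 0.00983, 0.00604, 0.000306 and 0.000322), and 1.46 ± 0.13 over all 4 times (7.6e-10). The call at 30 weeks was lost without sham replicate 5, the lower of its sham arrays (0.95 log2, adjusted p = 0.254). That at 6 weeks was lost without any 1 of 3 arrays (highest adjusted p 0.17), and that at 12 weeks with array weights (1.41 log2, adjusted p = 1).

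After infarction Nppb read 19286, 18926, 22132 and 21503 at 3 weeks, against 10993 and 8804 in sham hearts, and 26141, 23092, 18291 and 15693 at 9 weeks, against 10669 and 10209. The groups did not overlap, and 8.48% and 13.7% of all probe sets also lay wholly above sham at 3 and 9 weeks. The effects were 1.05 ± 0.23 (limma adjusted p = 0.0347) and 0.97 ± 0.23 log2 (0.0228), and 1.01 ± 0.16 over both times (0.000246). The single-time calls were weak: that at 3 weeks was lost when any 1 of its 6 arrays was left out, that at 9 weeks without sham replicate 5, sham replicate 6 or infarction replicate 1, and both after quantile normalization (adjusted p = 0.0828 and 0.0625). That at 3 weeks was also lost in a fit of the infarction arrays alone (0.0576).

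In shunted hearts Nppb read 14676 and 15906 at 3 weeks, against 9832 and 8921 in sham hearts, and 18265 and 16458 at 8 weeks, against 12219 and 12577. All 4 shunted arrays were above their sham arrays, which held for 20.9% and 20.8% of all probe sets at 3 and 8 weeks. The effect over both times did not pass the test (0.60 ± 0.18 log2, limma adjusted p = 0.381).

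Angiotensin II and Ditpa gave no called probe set among the 14, and 0% of all 8740 probe sets were called for either hormone. At an unadjusted p below 0.05, 4 of the 14 passed for angiotensin II and 2 for Ditpa. The share of all probe sets at that threshold was not counted, and probe sets of the same gene are not independent. Nothing is concluded from these counts. Nppa was 14173 and 14174 in angiotensin II hearts and 10324 and 7806 in Ditpa hearts, against 8395 and 10875 in vehicle hearts. The angiotensin II arrays both lay above both vehicle arrays, and the Ditpa arrays overlapped them. The effects were 0.57 ± 0.26 log2 for angiotensin II (95% confidence interval 0.04 to 1.10, limma adjusted p = 1) and -0.09 ± 0.26 for Ditpa (-0.62 to 0.44, adjusted p = 1). Nppb was 15502 and 13292 in angiotensin II hearts and 6740 and 11933 in Ditpa hearts, against 10285 and 10553 in vehicle hearts, effects of 0.46 ± 0.26 and -0.22 ± 0.26 log2. Of the 14 probe sets, 7 had both angiotensin II arrays above both vehicle arrays, which 18.7% of all probe sets also showed, and 3 had both below, as did 19.1%. Both hormones share the vehicle arrays, so their effects are not independent of each other.

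**Figure D2:**
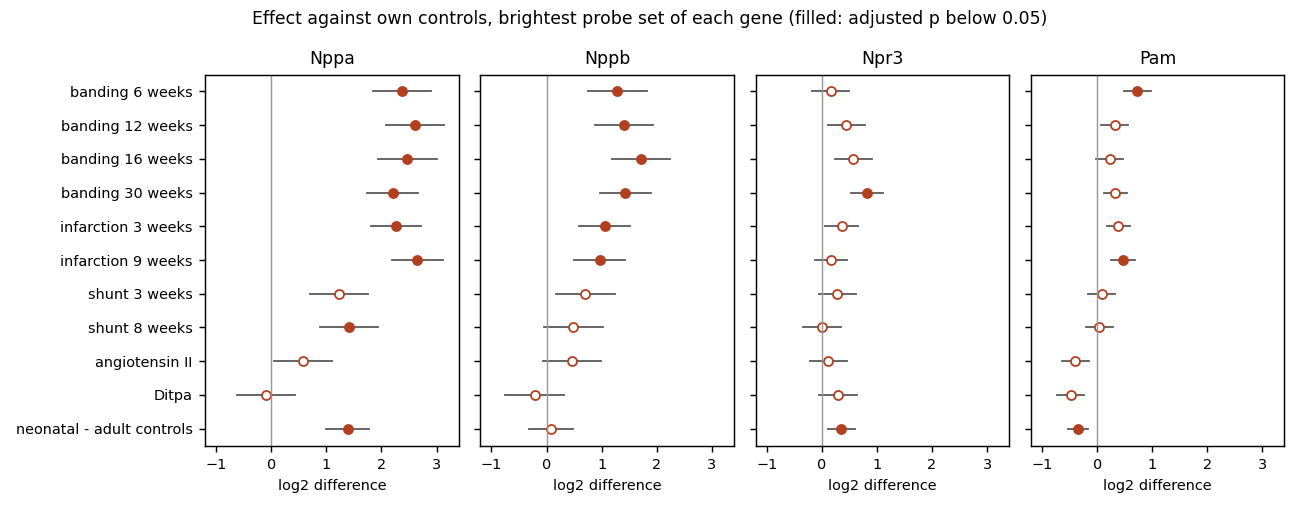
Effect of each treated group against its own controls, and of neonatal against adult control hearts, for the brightest probe set of Nppa, Nppb, Npr3 and Pam. The horizontal axis is the log2 difference, lines are 95% confidence intervals of the limma fit, and filled circles have an adjusted p below 0.05. Nppa lies between 2.20 and 2.65 in the 6 banding and infarction groups, at 1.23 and 1.41 in the shunt groups, and at 0.57 and -0.09 under angiotensin II and Ditpa.

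The effects differed between the 5 models for 7 of the 14 probe sets by a moderated F test, which 0.275% of all probe sets passed. These were the 4 of Nppa (limma adjusted p between 1.06e-05 and 0.000185), Nppb (0.0162) and the 2 brightest of Pam (0.000578 and 0.0195). After quantile normalization Nppa (0.000109 to 0.000534) and Nppb (0.0287) still passed and both probe sets of Pam did not (0.862 and 0.22). At the stricter Bonferroni threshold, which 0.114% of all probe sets passed, the 4 of Nppa and the brightest of Pam remained.

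All 10 pairs of models were compared, with p-values adjusted over all probe sets within each pair. Between banding and infarction 0 of the 14 were called, as was 0% of all probe sets. At an unadjusted p below 0.05, for which no share of all probe sets was counted, 1 of the 14 passed. For Nppa the difference between banding and infarction was -0.05 ± 0.20 log2, with a 95% confidence interval of -0.46 to 0.37, and for Nppb it was 0.45 ± 0.20 (0.03 to 0.86, limma adjusted p = 0.674). The Nppa effect of banding exceeded that of the shunt by 1.09 ± 0.22 log2 (adjusted p = 0.0237), and 3 of its 4 probe sets passed in this pair, where 0.16% of all were called. None of the 3 passed after quantile normalization (0.79 log2 and adjusted p = 0.108 for the brightest), and with array weights 1 did. The call of the brightest was also lost without shunt sham replicate 3 at 3 weeks (adjusted p = 0.0808), shunt sham replicate 4 (0.11) or shunt replicate 1 (0.0633) at 8 weeks, or banding sham replicate 4 at 16 weeks (0.0538). Infarction minus shunt was of like size, 1.14 ± 0.24, and did not pass (adjusted p = 0.16), in a pair where 0% of all probe sets were called. Against the hormones Nppa rose more in banding by 1.84 ± 0.29 (angiotensin II, adjusted p = 0.00158) and 2.50 ± 0.29 log2 (Ditpa, 2.59e-06), and more in infarction by 1.89 ± 0.30 (0.00189) and 2.55 ± 0.30 (7.53e-06). The share of all probe sets called was 0.149% and 0.4% for banding and 0.126% and 0.183% for infarction in these pairs, and 4, 7, 4 and 5 of the 14 were called. After quantile normalization 3, 5, 0 and 4 were called, and infarction minus angiotensin II for Nppa was 1.27 log2 and no longer passed (adjusted p = 0.16). For Nppb, banding exceeded Ditpa by 1.68 ± 0.29 log2 (0.00219), a call lost without Ditpa replicate 1 (0.0994). Between the shunt and either hormone, and between the hormones, 0 of the 14 passed (0%, 0% and 0.0114% of all).

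The hormone arrays differed from the rest at the top of the intensity scale. The brightest probe set of an array reached 22581 to 23633 in the 4 hormone arrays, 29923 to 64884 in banding, 45551 to 64869 in infarction, 31294 to 42377 in shunt, 24526 to 30195 in neonatal and 27718 to 64867 in the 18 adult control arrays. Among the controls, the vehicle arrays that the hormones are read against reached 39898 and 33408. The summed signal of 5 measured ventricular myocyte markers (Myh6, Myl2, Myl3, Tnni3, Actc1) was 108175 to 112518 in hormone arrays and 143678 to 290255 in surgical arrays, against 131943 to 282918 in control arrays, with 0 of the 5 called in any model. The part of this difference in the hormone results was not tested. Median signals of whole arrays were close, from 1002.6 to 1084.4.

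The rank of a probe set within its own array does not use that scale. Nppa ranked 11 to 26 of 8740 in the 10 banding arrays, 16 to 75 in the 8 infarction arrays and 110 to 197 in the 4 shunt arrays. It ranked 168 and 203 in angiotensin II hearts and 314 and 488 in Ditpa hearts, against 248 to 754 in the adult control arrays. Nppb ranked 76 to 159 in banding, 110 to 191 in infarction and 157 to 234 in shunt, against 274 to 514 in control arrays. It ranked 143 and 203 in angiotensin II hearts and 557 and 263 in Ditpa hearts, against 365 and 340 in vehicle hearts. In banding Nppa read 76.07% to 89.47% of the highest signal on its array. Whether signals this near the top are compressed was not tested.

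**Figure D3:**
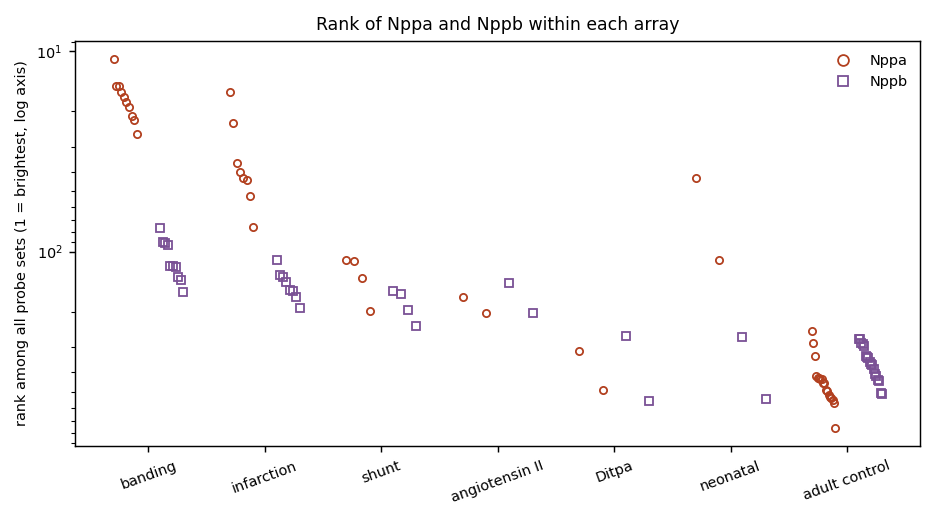
Rank of Nppa (circles) and Nppb (squares) among the 8740 probe sets of each array, on a log axis with the brightest at the top, and 1 symbol per array. For Nppa all banding arrays rank 26 or better, shunt arrays 110 to 197 and adult control arrays 248 to 754.

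Nppa and Nppb varied together. Over the 44 adult arrays Pearson's r between their log2 signals was 0.931, as a description that includes the contrast between treated and control arrays, and the 4 probe sets of Nppa had r of 0.988 to 0.996 with each other. In the 30-week sham hearts, replicate 5 had the lowest signal of all adult arrays for both Nppa (4824) and Nppb (6651), and replicate 6 had the highest of all control arrays for both (12676 and 12982). In the neonatal pools the genes parted: Nppa was 20567 and 20621, whereas Nppb was 7597 and 13561.

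The genes whose log2 signal over the 44 adult arrays was most like that of Nppa, among 4674 genes searched, were the skeletal muscle actin Acta1 (r = 0.899), the matrix proteoglycan Bgn (0.858) and Tsc22d1 (0.849). For Nppb they were Tsc22d1 (0.886), Acta1 (0.856) and the prostaglandin F receptor Ptgfr (0.837). For Npr3 they were Klhl41 (0.742), Ptgfr (0.728) and Mfge8 (0.684), and for Pam the muscle ankyrin repeat gene Ankrd1 (0.928), the chaperone clusterin Clu (0.883) and the glutathione peroxidase Gpx1 (0.873). These points share controls, scale and array, so they carry no test.

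Atrial tissue carries much Nppa, and its markers were therefore read in the same arrays. The summed signal of 4 measured markers (Myl7, Myl4, Nr2f2, Gja5) was 7522 to 16213 in surgical and 7937 to 13552 in hormone arrays, against 6659 to 11631 in adult control arrays, and none was at 0. Of the 4, 0 were called on average, in banding, infarction or shunt, beside 5.21%, 5.26%, 1.96% and 0.0458% of all probe sets. At these shares 4 genes would hold few calls or none. Their median effects were 0.05, 0.21, 0.07 and -0.07 log2, beside 0.0072, 0.0184, 0.0066 and 0.0031 over all probe sets. In 6-week banding, where Nppa was highest, the sum was 9787 and 9548, against 8895 and 7888 in sham hearts. In 16-week banding it was 12301 and 16213, against 9683 and 8736 in sham hearts. The sham arrays at 30 weeks that differed in Nppa had sums of 9935 and 10478. Of 5 fibroblast markers (Col1a1, Col1a2, Col3a1, Dcn, Postn), 4 were called higher on average, in banding and in infarction. Of all probe sets 3.64%, 3.28% and 1.7% were called higher there. In the shunt 0 of the 5 markers were called, beside 0.0458% of all probe sets, a share at which no call says little. Their median effect there was 0.29 log2, beside 0.0031 over all probe sets. The sum of the 5 was 31390 to 90708 in surgical arrays, against 25977 to 51604 in control arrays. The part of atrial or fibroblast RNA in these results was not tested. In whole-tissue RNA a change in the number of cells of a type and a change in RNA per cell cannot be told apart.

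Npr3, the clearance receptor, had signals near or below the middle of its arrays (best rank 4362 of 8740), and its change was small, with the highest values late after banding. The deposited values carry no detection call, so how much of such a signal is background is unknown, and a fold change may understate the change in RNA. The brighter probe set (rc_AA945907_at) rose by 0.32 ± 0.05 log2 on average, 1.25-fold (limma adjusted p = 0.000159), in 24 of 26 hypertrophic arrays. The other (S79624_at) rose by 0.23 ± 0.05 (adjusted p = 0.00434), in 23 of 26. These counts are of arrays above the mean of their own controls. Above both controls lay 22 of 26 on the brighter and 16 of 26 on the other, and no share of all probe sets was counted.

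At 30 weeks the banded arrays read 1059, 846, 901 and 1020 on the brighter probe set, against 487 and 600 in sham hearts. On the other probe set they read 512, 515, 514 and 570, against 319 and 328. All 4 banded arrays were above both sham arrays on both probe sets, which held for 11.4% of all probe sets. The effects were 0.82 ± 0.14 (limma adjusted p = 0.00137) and 0.71 ± 0.14 log2 (0.00359). At the earlier times the brighter probe set read 617 and 698 in banded hearts, against 588 and 588 in sham hearts, at 6 weeks, then 767 and 625 against 573 and 452 at 12 weeks, and 766 and 969 against 610 and 551 at 16 weeks. These groups did not overlap either, but 20.4%, 10.1% and 26.8% of all probe sets also lay wholly above sham at those times. The effects of 0.16, 0.44 and 0.57 log2 did not pass (limma adjusted p = 0.959, 0.372 and 0.128). S79624_at was at 0.16, 0.15 and 0.10 log2 at those times, and its banded and sham arrays overlapped at each. The difference between 30 and 6 weeks, 0.66 ± 0.22 log2 on the brighter probe set (95% confidence interval 0.21 to 1.11) and 0.55 ± 0.21 on the other (0.12 to 0.97), did not pass after adjustment (adjusted p = 0.543 and 0.589). Without sham replicate 5, the 30-week call of the brighter probe set was lost (0.67 log2, adjusted p = 0.254).

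**Figure D4:**
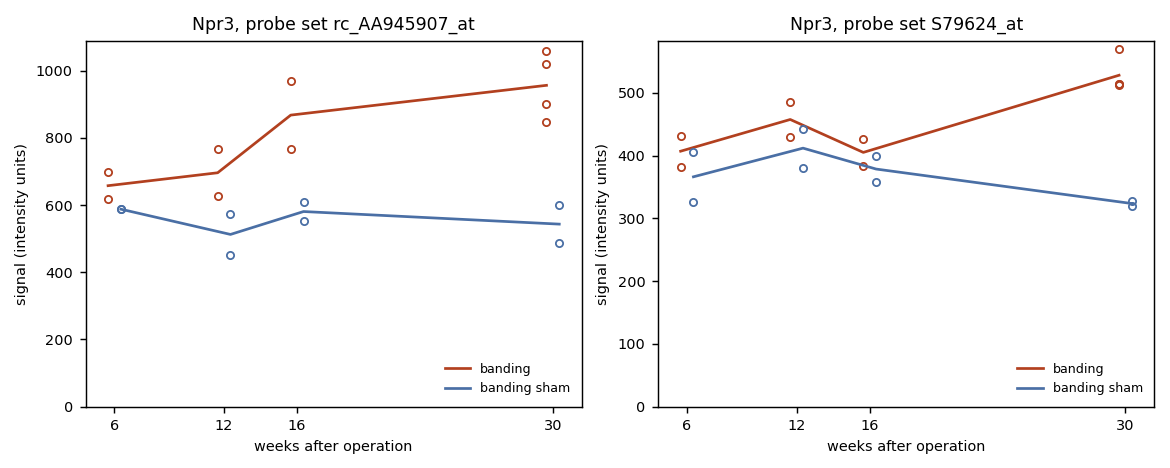
Signal of both probe sets of Npr3 after aortic banding and in sham hearts, in intensity units on an axis from 0, against weeks after the operation. Circles are arrays, slightly offset between groups, and lines join group means. At 30 weeks the banded arrays lie at 846 to 1059 (left) and 512 to 570 (right), above the sham arrays at 487 to 600 and 319 to 328.

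Over all banding times Npr3 rose by 0.50 ± 0.08 log2 on the brighter (limma adjusted p = 0.000104) and 0.28 ± 0.08 on the other probe set (0.0245). Banding called 10 of the 14 probe sets of the 4 genes, all higher, against 5.26% of all probe sets (3.28% higher, 1.98% lower). By time, banding called 7, 5, 5 and 8 of the 14 at 6, 12, 16 and 30 weeks, against 0.652%, 0.355%, 0.709% and 1.12% of all. Without sham replicate 5 the count at 30 weeks was 4. In infarction Npr3 was at 0.26 ± 0.10 (adjusted p = 0.27) and 0.18 ± 0.10 log2 (0.526), and in shunt at 0.14 ± 0.12 (0.816) and 0.35 ± 0.11 (0.381), none of them past the threshold. With array weights the brighter probe set did pass in infarction (0.30 log2, adjusted p = 0.0345) and at 16 weeks of banding (0.57 log2, 0.0328). The probe sets correlated weakly with each other over the 44 adult arrays (r = 0.369). Without the banding groups the average effect of the brighter probe set was 0.20 log2 and no longer passed (adjusted p = 0.218).

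Pam, the amidating enzyme, had 7 probe sets that did not move as 1. The 3 brightest rose on average, by 0.17 ± 0.04 (rc_AA891068_f_at, limma adjusted p = 0.00504), 0.24 ± 0.05 (rc_AA799575_f_at, 0.00146) and 0.42 ± 0.07 log2 (E03428cds_s_at, 9.26e-05). The 4 dim ones lay between -0.05 and 0.04 on average (adjusted p = 0.843 to 0.926). The suffix _f marks probes shared by a family of similar sequences and _s probes shared by several transcripts, whereas _i and _r mark sets for which some design rules were relaxed, so the sets need not read the same RNA. Over the 44 adult arrays the first 2 had r = 0.828 with each other and 0.552 and 0.405 with E03428cds_s_at.

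At 6 weeks after banding rc_AA891068_f_at read 30529 and 32431 in banded hearts, against 18028 and 20067 in sham hearts, 0.73 ± 0.12 log2 or 1.65-fold (limma adjusted p = 0.000818). rc_AA799575_f_at read 21183 and 21632, against 12215 and 9490, 0.99 ± 0.15 log2 (0.000263). At 12, 16 and 30 weeks the same probe sets had effects of 0.32, 0.23 and 0.33, and 0.44, 0.40 and 0.42 log2, none of which passed. The 30-week effect of the brightest did pass after quantile normalization (0.37 log2, adjusted p = 0.0136), with array weights (0.00694) and without banding replicate 4 (0.0166). Their sham arrays at 6 weeks were the lowest of all adult control arrays. The difference between 30 and 6 weeks was -0.39 ± 0.16 log2 on the brightest probe set (adjusted p = 0.628). After quantile normalization the 6-week effect of the brightest was 0.25 log2 (adjusted p = 0.338), in a fit of the banding arrays alone it did not pass either (0.0898), and the difference between 30 and 6 weeks turned to 0.12 log2. E03428cds_s_at had effects of 0.66, 0.42, 0.06 and 0.72 log2 at 6, 12, 16 and 30 weeks. Of these only that at 30 weeks was called, and not after quantile normalization (0.62 log2, limma adjusted p = 0.0594). Over all banding times the 3 probe sets rose by 0.40 ± 0.06 (1.94e-05), 0.56 ± 0.07 (3.8e-06) and 0.46 ± 0.10 (0.00389).

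After infarction rc_AA891068_f_at read 27906, 28236, 27763 and 32694 at 3 weeks, against 21522 and 23065 in sham hearts. At 9 weeks it read 31625, 30119, 31268 and 27783, against 21840 and 21769. The groups did not overlap, and 8.48% and 13.7% of all probe sets also lay wholly above sham at 3 and 9 weeks. The effect over both times was 0.43 ± 0.07 log2, 1.34-fold (limma adjusted p = 0.000719). Taken singly, its 9-week effect of 0.47 log2 was called. That call was lost after quantile normalization (0.23 log2, limma adjusted p = 0.164), in a fit of the infarction arrays alone (0.075) and without infarction replicate 1 (0.0542). rc_AA799575_f_at was at 0.34 log2 over both times and was not called. E03428cds_s_at had its largest effect at 9 weeks, with 19979, 14079, 17641 and 14431 in infarcted hearts, against 8776 and 5352 in sham hearts, 1.26 ± 0.18 log2 or 2.39-fold (0.000101). Those sham arrays included the lowest value of this probe set in all adult arrays. In all, infarction called 7 of the 14 probe sets, against 1.96% of all (1.7% higher), which were the 4 of Nppa, the 1 of Nppb and 2 of Pam. By time it called 5 at 3 weeks and 7 at 9 weeks, against 0.206% and 1.92% of all.

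In shunted hearts the 3 bright probe sets of Pam were at 0.06 ± 0.09, -0.01 ± 0.11 and 0.29 ± 0.15 log2, none past the threshold. Under the hormones the brightest went the other way from the surgical groups. rc_AA891068_f_at read 16705 and 17041 in angiotensin II and 15996 and 15915 in Ditpa hearts, against 23303 and 21137 in vehicle hearts. All 4 hormone arrays were below both vehicle arrays, as were 19.1% of all probe sets for angiotensin II and 17.2% for Ditpa, and the effects of -0.40 ± 0.12 and -0.48 ± 0.12 log2 did not pass after adjustment (limma adjusted p = 0.507 and 0.344). With array weights both passed (0.0037 and 0.00481), and after quantile normalization they were 0.0039 and -0.07 log2, the first with its sign turned. The probe set ranked 105 to 122 of 8740 in hormone arrays, within the 95 to 130 of the adult control arrays, against 55 to 108 in banding and 71 to 108 in infarction. With the 5 models weighted equally, which gives the hormones more weight, its average effect was 0.0034 log2 and no longer passed (adjusted p = 0.998, with 1.02% of all called). That call was also lost without the banding (0.02 log2) or without the infarction groups (0.11 log2).

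**Figure D5:**
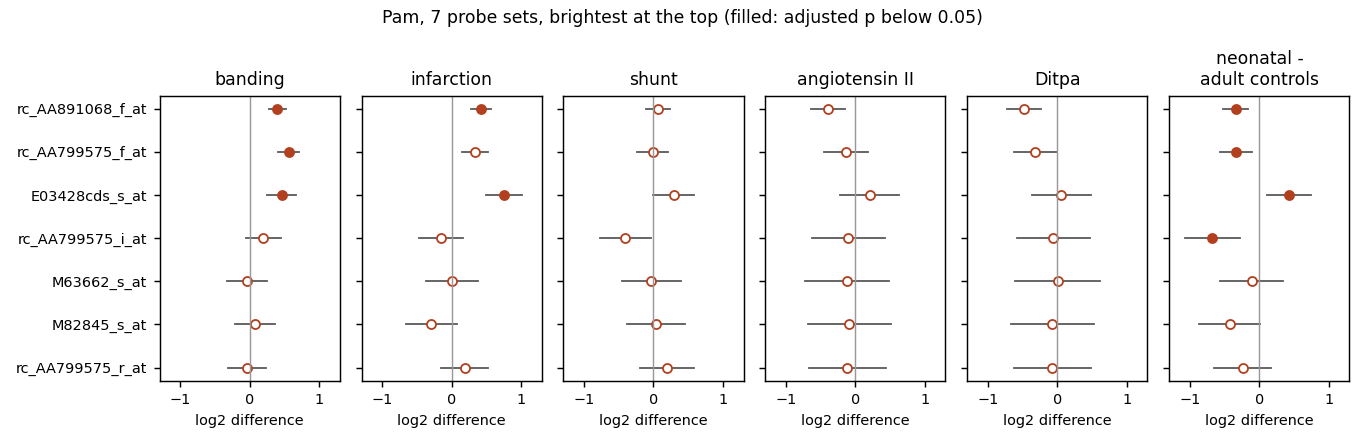
Effects on the 7 probe sets of Pam in the 5 models and in neonatal against adult control hearts. The horizontal axes are log2 differences, lines are 95% confidence intervals of the limma fit, filled circles have an adjusted p below 0.05, and the brightest probe set is at the top. The 3 bright probe sets are at 0.40, 0.56 and 0.46 in banding, whereas in neonatal hearts they are at -0.34, -0.34 and 0.42.

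Neonatal ventricles had more Nppa than adult control ventricles. Nppa read 20567 and 20621 in neonatal hearts, against a lowest value of 4824, a median of 7847 and a highest of 12676 in the 18 adult control arrays. The difference was 1.39 ± 0.19 log2, 2.62-fold (limma adjusted p = 1.2e-06), in a comparison where 32.6% of all probe sets were called. The other 3 probe sets differed by 1.69 to 1.88. It passed against the vehicle arrays alone too (1.11 ± 0.26, adjusted p = 0.00295). Nppa ranked 43 and 110 in the neonatal arrays. Nppb did not pass, at 7597 and 13561 in neonatal hearts against 6651 to 12982 in adult controls, 0.08 ± 0.19 log2 with a 95% confidence interval of -0.32 to 0.48 (adjusted p = 0.793), and its sign turned after quantile normalization (-0.08 log2).

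The brighter probe set of Npr3 was higher in neonatal hearts, at 665 and 804 against 437 to 798 in adult controls, by 0.36 ± 0.12 log2 (limma adjusted p = 0.0263), and the other was at 0.28 ± 0.12 (0.0638). The call was lost without neonatal replicate 2 (0.22 log2, adjusted p = 0.384) and against the vehicle arrays alone (0.28 log2, 0.283). Pam differed in both directions. rc_AA891068_f_at was lower, at 18590 and 16616 in neonatal hearts against 18028 to 25082 in adult controls, by -0.34 ± 0.09 log2 (0.0037), as were rc_AA799575_f_at at -0.34 ± 0.11 (0.0202) and the dim rc_AA799575_i_at at -0.68 ± 0.19 (0.00672). The call of rc_AA891068_f_at was lost without neonatal replicate 2 (-0.26 log2, adjusted p = 0.14) and against the vehicle arrays alone (0.0588). E03428cds_s_at was higher, at 14749 and 14861 in neonatal hearts against 5352 to 17839 in adult controls, by 0.42 ± 0.16 log2 (0.0358), although within their range, and was not called after quantile normalization (0.0952). In this comparison 9 of the 14 probe sets were called, 6 higher and 3 lower, against a background of 32.6% of all probe sets (15.5% higher, 17.0% lower), and 4 were called without neonatal replicate 2. The summed atrial markers were 23920 and 27558 in the neonatal arrays, against 6659 to 11631 in adult controls. Of the 4, 2 were called higher, Myl4 by 3.35 and Myl7 by 1.12 log2, Gja5 was called lower (-0.34 log2), and Nr2f2 was not called. All 5 ventricular myocyte markers were called lower as deposited, with a median of -0.66 log2 that became 0.03 after quantile normalization. Whether the 4 markers are particular to atrial tissue in neonatal hearts was not tested. The part of either marker group in the neonatal results was not tested either.

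The adult control hearts themselves gave no called difference in either peptide. Over the 9 control groups a moderated F test did not pass for Nppa (limma adjusted p = 0.622) or Nppb (0.631). It passed for 2 probe sets of Pam, E03428cds_s_at (0.00387) and the dim rc_AA799575_r_at (0.00977), where 6.58% of all probe sets passed. E03428cds_s_at ranged from 5352 to 17839 over these arrays. Between the sham hearts of banding at 30 and 6 weeks Nppa differed by -0.29 ± 0.26 log2 (95% confidence interval -0.82 to 0.23) and Nppb by -0.03 ± 0.26 (-0.56 to 0.50). Among the 3 contrasts of the effect between times, 0 of the 14 probe sets passed for banding 30 against 6 weeks (0.0114% of all called), infarction 9 against 3 weeks (0%) or shunt 8 against 3 weeks (0%). An unadjusted p below 0.05 was found for 4, 3 and 0 of them. The share of all probe sets at that threshold was not counted, so nothing is concluded from these counts.

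The methods name a rank sum test on log fold changes for common regulation. Here it was run as an exact two-sided test of the 26 hypertrophic ratios against the 18 control ratios, each over the mean of its own controls, a set-up chosen for this work, and 7 of the 14 probe sets passed at the Bonferroni threshold, against 1.34% of all. They were the 4 of Nppa (Bonferroni p between 4.6e-05 and 0.000587), Nppb (4.6e-05), the brighter of Npr3 (0.0349) and E03428cds_s_at of Pam (0.0406). The control ratios are taken against the mean of which each is a part, so their spread is understated. All 4 genes also belong to the core set that the study picked with a rank sum test on these same arrays. Their passing here was therefore largely set in advance and is no independent support.

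Genes that act with the 4 were read from 3 lists, beside the 5.21% of all probe sets called on average, a share at which lists of this size would hold few calls or none. Of the natriuretic peptide pathway (receptors, the proteases that cut or degrade the peptides, cyclic GMP effectors and cardiac transcription factors) 14 of 21 listed genes were measured, and 0 were called on average. The median of their average effects was 0.0057 log2, beside 0.0072 over all probe sets. In banding 1 of the 14 was called, near the 5.26% of all probe sets called there. It was Npr1, the signalling receptor of both peptides, at -0.17 log2 (limma adjusted p = 0.0283). In infarction or shunt 0 were called, beside 1.96% and 0.0458% of all. In neonatal hearts Ide, a protease that degrades the peptides, was higher by 0.48 and Nkx2-5, a cardiac transcription factor, by 0.37 log2. Of prohormone convertases and granule proteins 12 of 17 were measured, with 0 called on average or in any model, and 3 lower in neonatal hearts: the convertase Pcsk2 (-0.24), the granule protein Chgb (-0.55) and Kalrn, which binds the tail of Pam (-0.22). Of genes of amidated peptides, the products of Pam, 20 of 21 were measured, and 0 were called on average or in any model. In neonatal hearts 1 was called higher, oxytocin (Oxt, 0.47 log2), and 2 lower, neuropeptide Y (Npy, -0.60) and vasopressin (Avp, -0.32). The neonatal counts of these lists stand beside the 15.5% of all probe sets called higher and 17.0% called lower. Many of these genes are dim on this array, where background limits what can be seen.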

How the data were processed

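Each of 46 Affymetrix RGU34A arrays was hybridised with 1 pool of left ventricular RNA. The authors deposited linear intensities: model-based expression values from perfect match probes only, made in dChip after invariant rank normalization. Groups came from the sample descriptions. Of 8740 probe sets the platform annotation gives 7006 exactly 1 symbol, 308 several and 1426 none. Values were raised to a floor of 16 (122 values, 0 of the 4 genes) and put on the log2 scale. limma 3.58.1 in R 4.3.3 (lmFit with 1 mean per group, 20 groups, eBayes, two-sided) gave all contrasts, the moderated F tests and array weights, with Benjamini-Hochberg adjustment over all probe sets within a contrast. The rank sum test, whose 2 sets of ratios were set here, was exact (Python, scipy 1.17.1). The scripts were tested on simulated data. The number of arrays limits the precision, and most groups hold 2. Every probe set of the 4 genes is reported, and the brightest stands for a gene. From 3 lists (natriuretic pathway, prohormone processing, amidated peptides) called genes were named, with the 3 genes most correlated with each member. The 4 genes and the lists were chosen with earlier results of these data known. Promoter sequences and gene positions are RefSeq's (GRCr8), where all 4 genes were matched; the 14 probe sets have no sequences here. Alternatives were floors of 1 and 64, quantile normalization, median centring, a filter at mean log2 7, array weights, a fit per model, other weightings, a replicate block and leaving out each array. The methods name separate controls for the hormones (vehicle pumps, saline injections), whereas the labels give 1 vehicle group.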

Additional observations from a re-analysis of the deposited data

Results flagged for a closer look

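Groups of 4 arrays (banding at 30 weeks, infarction at 3 and 9 weeks) were examined for an array set apart from the other 3 by Dixon's criterion, in 42 combinations of probe set and group, where chance alone sets about 1 in 20 apart. In 3 of them an array stood apart. In infarcted hearts at 9 weeks, replicate 4 read 30515 on the Nppa probe set E00698cds_s_at, below the nearest of the others at 41464. In banded hearts at 30 weeks, replicate 4 read 570.4 on the Npr3 probe set S79624_at, above the nearest at 514.7, whereas on Nppa it was the lowest of its group (26771). In infarcted hearts at 3 weeks, replicate 6 read 32694 on the Pam probe set rc_AA891068_f_at, above the nearest at 28236.

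The effects differed between the 5 models, by the moderated F test of limma, for the Nppa probe sets E00903cds_s_at, E00775cds_s_at and X01118_at (adjusted p = 1.06e-05 each) and E00698cds_s_at (0.000185). They also differed for Nppb (0.0162) and for the Pam probe sets rc_AA891068_f_at (0.000578) and rc_AA799575_f_at (0.0195), of which those of Pam did not pass after quantile normalization (0.862 and 0.22).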

How the results depend on the processing

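Most groups hold 2 arrays, so single arrays moved several calls, and the number of arrays limits the precision. Counts are of the 14 probe sets. Quantile normalization brought banding minus shunt to 0, against 3 as reported, and array weights to 1. It also brought infarction minus angiotensin II to 0, against 4. Array weights gave 2 at banding 12 weeks, against 5, and 2 for angiotensin II and 1 for Ditpa, against 0. The count was 4 in neonatal hearts against vehicle only, against 9, and 2 at shunt 3 weeks with its model fitted alone, against 0. Without banding, chosen after seeing the data, the average gave 6, against 10. After quantile normalization the sign turned for Pam under angiotensin II (0.0039 log2), Nppa (0.0762) and Pam (0.0118) in banding minus infarction, Nppa (0.40) and Pam (0.12) in banding 30 minus 6 weeks, Pam in infarction 9 minus 3 weeks (-0.0065) and Nppb in neonatal hearts (-0.0797). It turned with median centring for Pam in shunt 8 minus 3 weeks (0.0145), with array weights for Pam in banding minus infarction (0.0084) and Nppb in infarction 9 minus 3 weeks (0.0282), and with vehicle only for neonatal Nppb (-0.0377). The cause was not tested, and none of these values had passed.

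An array left alone in its group was taken to vary like the other groups. Leaving out each array in turn gave 4 to 8 at banding 30 weeks (4 without sham replicate 5), 0 to 5 at shunt 3 weeks (5 without shunt replicate 1, and 2 to 4 without either banding sham array of 6 or 30 weeks), 0 to 4 at shunt 8 weeks (0 without sham replicate 3 or shunt replicate 1), 0 to 5 in banding minus shunt, 0 to 1 in infarction 9 minus 3 weeks (1 without sham replicate 5 at 9 weeks), 0 to 2 in banding sham 30 minus 6 weeks (2 without sham replicate 6) and 4 to 10 in neonatal hearts (4 without neonatal replicate 2). Banding minus shunt gave 0 without shunt sham replicate 3 at 3 weeks, shunt sham replicate 4 or shunt replicate 1 at 8 weeks, or banding sham replicate 4 at 16 weeks. It gave 1 without shunt sham replicate 4 or shunt replicate 2 at 3 weeks or banding replicate 2 at 6 weeks, and 5 without banding sham replicate 6 at 30 weeks. Signs turned within -0.16 to 0.17 log2 for Npr3 and -0.0272 to 0.11 for Pam at shunt 8 weeks, and within -0.29 to 0.11 for Nppa and -0.63 to 0.20 for Nppb under Ditpa. In banding minus infarction the ranges were -0.22 to 0.13 (Nppa) and -0.055 to 0.0079 (Pam), and in banding 30 minus 6 weeks -0.86 to 0.53 (Nppa) and -0.34 to 0.63 (Nppb). They were -0.25 to 0.0741 for Nppb in infarction 9 minus 3 weeks, -0.11 to 0.0259 for Pam in shunt 8 minus 3 weeks, and -0.34 to 0.50 for Nppb in neonatal hearts. Between sham hearts at 30 and 6 weeks they were -0.99 to 0.40 (Nppa), -0.51 to 0.45 (Nppb) and -0.27 to 0.0291 (Npr3).

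The hormone and vehicle arrays share replicate numbers, but same-numbered arrays did not deviate together (r = -0.043, -0.064 and -0.083). With 2 arrays per group this check cannot exclude that the numbers pair them. With a replicate block on these 6 arrays, 0 of the 14 were called for either hormone (Nppa 0.57 log2 under angiotensin II).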
